A study of Homo sapiens with 9 samples.

Results

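E2F and MYB proteins are transcription factors, of which some switch on and others repress genes of DNA replication and of mitosis. Their mRNAs were followed here in MP41 cells, a uveal melanoma line, after transfection of synthetic miR-16. The members are the genes named E2F1, E2F2, E2F3, E2F4, E2F5, E2F7, E2F8, MYB, MYBL1, and MYBL2, chosen by symbol, and all 10 were among the 14839 genes with values. Cells were given 66 nM of either miR-16 or a control mimic, miR-CTR, and collected 6, 12, 24, and 48 h later, and 1 library, labelled with the control mimic, was taken before transfection (0 h). This made 9 libraries of polyA RNA, 4 with miR-16 and 5 labelled with miR-CTR, all from the same line and with 1 library for each condition. No condition was repeated, so a difference at a single time could not be tested against the spread between cultures, and errors given at single times or windows are counting errors only. The mean difference over the 4 pairs of libraries matched by time was tested with limma, with time as a block. These pairs are successive times of an unrepeated series, so the limma p-values do not measure the spread between cultures either. The table numbers its time points instead of giving hours; these numbers were matched to the labelled hours in ascending order, which no other source used here checks.

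The E2F family divides by role. E2F1, E2F2, and E2F3 activate the genes of S phase when the retinoblastoma protein releases them. E2F4 and E2F5 mostly act as repressors bound to the pocket proteins p107 and p130 in cells that do not divide. E2F7 and E2F8 are atypical repressors that need no dimerization partner and shut the same genes down later in the cycle. MYBL2 (B-MYB) is itself an E2F target and joins the MuvB complex on the promoters of mitotic genes, MYB is best known in immature blood cells, and MYBL1 (A-MYB) in male germ cells. A miRNA lowers the mRNAs that its seed, the bases 2 to 8 from its 5′ end, can pair with in their 3′UTR. The mature miR-16, encoded on chromosome 13 (50049027 to 50049048, reverse strand) and on chromosome 3 (160404754 to 160404775, forward strand) of GRCh38, is shown with its seed in capitals to set it beside the members' 3′UTRs.
miR-16: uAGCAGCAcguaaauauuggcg

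In the longest annotated 3′UTR (GENCODE release 29), 4 of the 10 members had a match of at least 7 bases to this seed, against 29.2% of the 11602 measured genes with an annotated 3′UTR. The searched letters were TGCTGCTA (8mer, an A opposite the first base of miR-16), TGCTGCT (7mer-m8), and GCTGCTA (7mer-A1). MYB, MYBL1, and E2F3 had an 8mer, which 5% of all these genes had, and E2F7 had the 7mer-m8. MYB had a pair of 8mers at bases 974 to 981 and 1001 to 1008 of its 1507-base 3′UTR, on chromosome 6 at 135218634 to 135218641 and 135218661 to 135218668. MYBL1 also had a close pair, at bases 1435 to 1442 and 1464 to 1471 of 2522. E2F3 had 1 8mer, at bases 2491 to 2498 of 3285 (chromosome 6, 20492921 to 20492928). The matches of E2F7 lay far apart, at bases 882 to 888 and 2704 to 2710 of 2891 (chromosome 12, reverse strand, 77023251 to 77023257 and 77021429 to 77021435). E2F2 had only 6-base matches (GCTGCT) in a 3′UTR of 3450 bases. E2F1, E2F4, E2F5, E2F8, and MYBL2 had none in 3′UTRs of 1049, 795, 656, 595, and 409 bases, each shorter than the 3′UTRs of the 4 members with a match. The sites are shown in the sense of the mRNA, with the matched bases in capitals.
MYB site 1: aaaacgtttttTGCTGCTAtggtcttagcc
MYB site 2: gcctgtagacaTGCTGCTAgtatcagaggg
E2F3 site: taccattgagtTGCTGCTAttaaagctcac
E2F7 site 1: agcagcctaacTGCTGCTtctcaaataac
E2F7 site 2: attaattttatTGCTGCTtactgcttttg

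**Figure D1:**
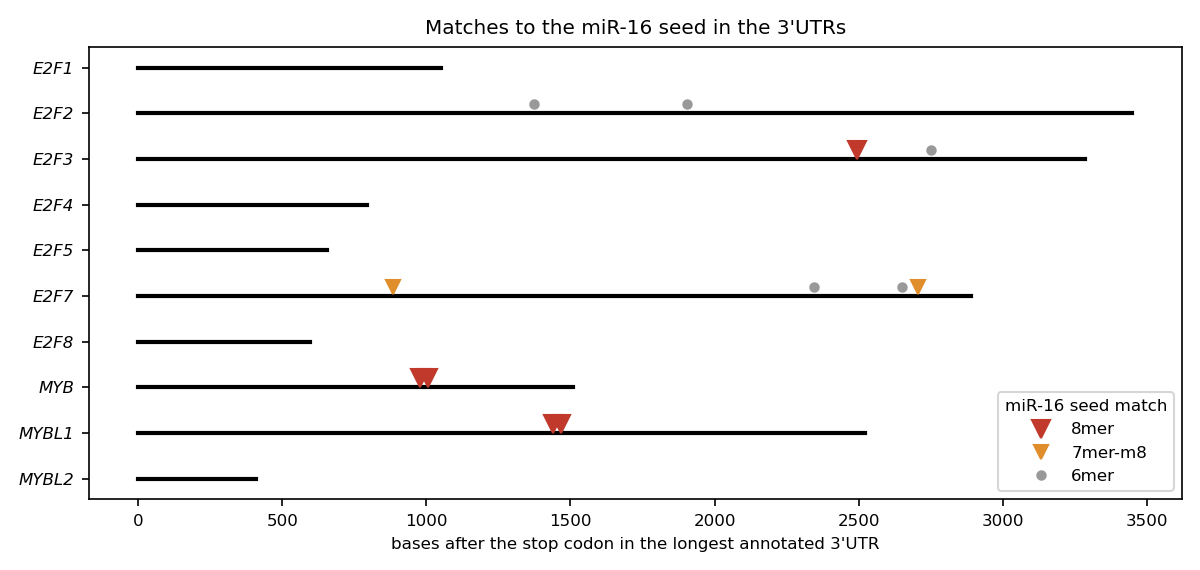
Each line is the longest annotated 3′UTR of a member, drawn in bases after the stop codon, with triangles for 8mer and 7mer-m8 matches to the miR-16 seed and grey points for 6mers. MYB and MYBL1 each carry a close pair of 8mers, E2F3 carries 1 8mer, E2F7 carries a pair of 7mer-m8 matches far apart, and the other 6 members carry no match of 7 or more bases.

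The genes lie apart from each other in the genome (GENCODE release 29 on GRCh38). The activators are E2F1 on chromosome 20 (33675683 to 33686404, reverse strand), E2F2 on chromosome 1 (23506430 to 23531220, reverse strand), and E2F3 on chromosome 6 (20401906 to 20493715, forward strand). The other E2F genes are E2F4 on chromosome 16 (67192169 to 67198918, forward strand), E2F5 on chromosome 8 (85177225 to 85217158, forward strand), E2F7 on chromosome 12 (77021247 to 77065580, reverse strand), and E2F8 on chromosome 11 (19224063 to 19241620, reverse strand). The MYB genes are MYB on chromosome 6 (135181315 to 135219173, forward strand), MYBL1 on chromosome 8 (66562175 to 66614247, reverse strand), and MYBL2 on chromosome 20 (43667019 to 43716496, forward strand).

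The depth differed between libraries. The deposited values are log2(reads / size factor + 1), and the reads recovered from them summed to between 20.3 M and 27.4 M reads (M, megareads) per library. At 48 h the sum was 27.4 M with miR-CTR and 21.9 M with miR-16, and read numbers of single genes given below are not scaled for this. The median gene stood between 9.13 and 9.17 in every library. The markers of the melanocyte lineage MITF, PMEL, MLANA, TYR, DCT, TYRP1, and SOX10 all stood above 12 in all 9 libraries. Of 9 markers of fibroblasts, leukocytes, and endothelium, 7 were not in the table and COL1A1 and LUM reached at most 8.86.

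Before transfection, every member was expressed, from 6.12 for MYB to 12.17 for MYBL2 on the deposited scale. Levels of different genes were compared per kb of exon. MYBL2 was the highest member at 0 h, with 1659.1 normalized reads per kb, followed by E2F1 (554.6), E2F3 (515.9), and E2F5 (396.7). E2F2 (229.2) and E2F4 (214.9) came next, then MYBL1 (134.6), E2F7 (96.4), and E2F8 (95.5), with MYB last at 12.5. Within the pairs E2F1 and E2F3, E2F2 and E2F4, and E2F7 and E2F8 the order turned when the longest transcript was used as the length, so these neighbours cannot be ranked. MYB was the only member below the 25th percentile of mean expression, with 10 to 85 reads per library, against at least 84 reads in any library for the others.

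The logFC at each time was the miR-16 value minus the miR-CTR value, the early logFC was its mean over 6 and 12 h and the late logFC its mean over 24 and 48 h, and a gene was called past 0.5 in size. In the late window 6 of the 10 members were called lower with miR-16 (E2F1, E2F2, E2F7, E2F8, MYB, and MYBL1), against 5.73% of all genes, and none was called higher, as 7.76% of all genes were. The median late logFC of the 10 was −0.645, beside 0.005 over all genes. No member was called in the early window, in which 1.45% of all genes were called lower and 2.04% higher. At 24 h alone 3 members passed −0.5 (MYB, MYBL1, and E2F7), where 5.26% of all genes did. At 48 h alone 7 members passed it (MYBL2 in addition to the 6 of the late window), where 8.96% of all genes did. E2F4 and E2F5 were the only members above 0 in the late window. Less mRNA per cell and fewer cells in the phase of the cycle that makes it cannot be told apart in such bulk RNA.

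**Figure D2:**
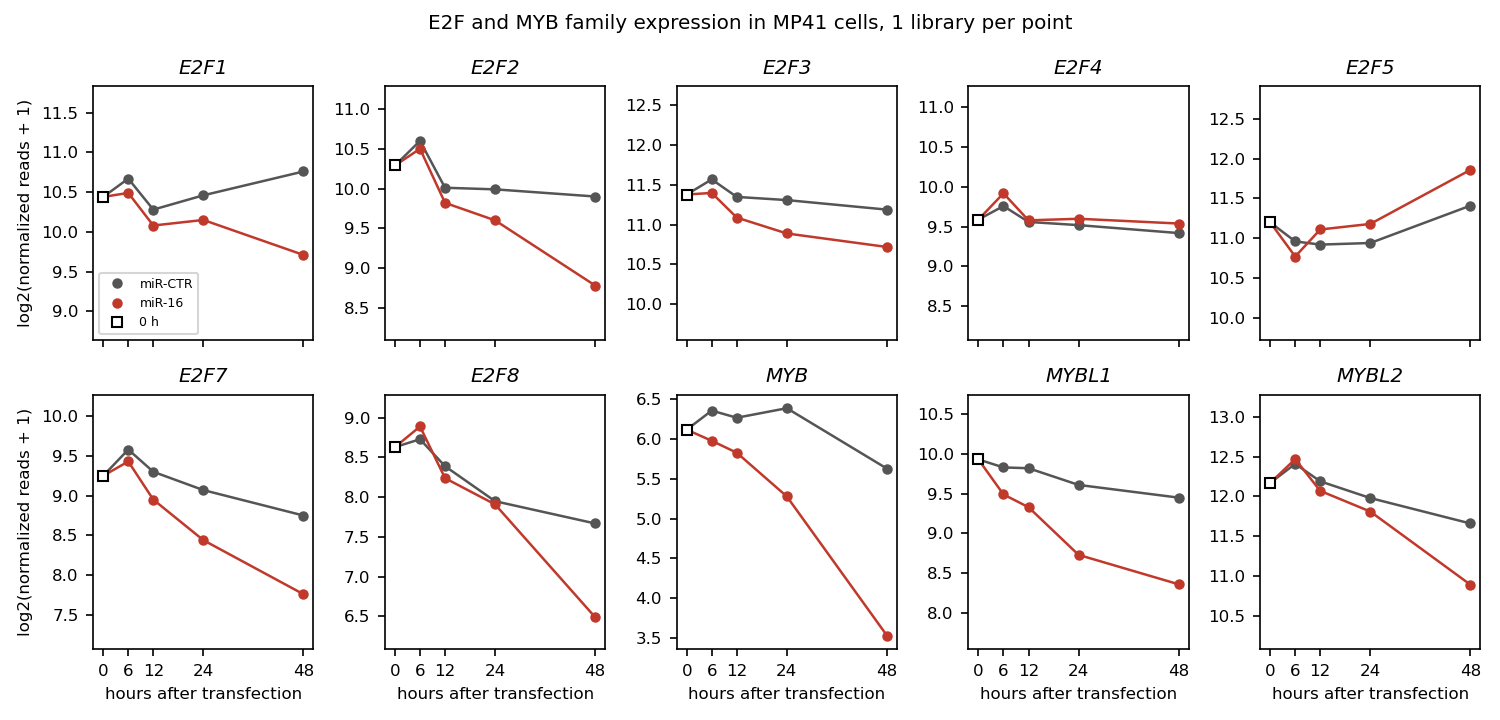
Deposited log2 value of each member (vertical axis, 3.2 units high in every panel) against hours after transfection, for miR-CTR (grey) and miR-16 (red), with the shared 0 h library as an open square; each point is 1 library. The miR-16 library at 48 h is the lowest of the 9 for 8 members, all but E2F4 and E2F5, and the highest of the 9 for E2F5.

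Among the activators, E2F1 was lower with miR-16 mainly at 48 h, when its control value was at its highest. E2F1 stood at 10.44 at 0 h, at 10.67, 10.28, 10.46, and 10.76 with miR-CTR at 6, 12, 24, and 48 h, and at 10.49, 10.08, 10.15, and 9.71 with miR-16. The miR-16 value was below the miR-CTR value at each of the 4 times, and the miR-CTR library at 48 h was the highest of all 9. At 6, 12, and 24 h its logFC was −0.18, −0.20, and −0.31, and 48 h brought −1.05 (95% counting interval −1.17 to −0.93), which is 2.07-fold lower. From 6 to 48 h E2F1 changed by 0.09 with miR-CTR and by −0.78 with miR-16.

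E2F2 had logFC values close to those of E2F1, while its control values decreased. It stood at 10.29 at 0 h, at 10.6, 10.01, 9.99, and 9.9 with miR-CTR, and at 10.5, 9.82, 9.6, and 8.78 with miR-16. In order of time, the logFC of E2F2 was −0.10, −0.19, −0.39, and −1.12 (last interval −1.28 to −0.96). Between 6 and 48 h E2F2 fell by 0.7 on the log2 scale with miR-CTR and changed by −1.72 with miR-16.

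E2F3, the only activator with a 7-base or longer seed match, had a smaller and steadier difference. It stood at 11.38 at 0 h, at 11.57, 11.35, 11.31, and 11.19 with miR-CTR, and at 11.4, 11.09, 10.89, and 10.72 with miR-16. The logFC was −0.17, −0.26, −0.42, and −0.47 at the 4 times, each with a 95% counting interval below 0. At −0.445 (counting SE 0.032) its late logFC did not reach the threshold, although against 0 h its late miR-16 value was lower by more than 0.5, at −0.575.

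Neither of the repressors E2F4 and E2F5 was called. E2F4 stood at 9.59 at 0 h, between 9.42 and 9.76 with miR-CTR, and between 9.54 and 9.92 with miR-16. Its late logFC was 0.10, with a 95% counting interval from −0.0044 to 0.204, and its 9 values spanned the smallest range of any member. E2F5 stood at 11.2 at 0 h, at 10.96, 10.92, 10.94, and 11.41 with miR-CTR, and at 10.77, 11.11, 11.18, and 11.86 with miR-16. Its logFC was −0.19 at 6 h and 0.19, 0.24, and 0.45 at the later times, so the sign at 6 h was opposite to the others. From 6 to 48 h it increased by 0.45 with miR-CTR and by 1.09 with miR-16, the only member to pass 0.5 upward, as 18.7% of all genes did. E2F5 shares 18.6% of its exon bases with genes of the other strand, C8orf59 among them, and whether counting used the strand is not given in the sources used here. C8orf59 itself had 10.72 at 6 h in the miR-16 series and 11.03 at 48 h, with a late logFC of 0.115, and its part in the E2F5 values was not tested.

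The atypical repressors were both called lower, with different timing. E2F7, with its pair of 7mer-m8 matches, stood at 9.25 at 0 h, at 9.58, 9.3, 9.07, and 8.75 with miR-CTR, and at 9.43, 8.95, 8.44, and 7.76 with miR-16. The logFC of E2F7 widened at each step, from −0.15 at 6 h through −0.35 and −0.63 to −0.99 at 48 h (interval −1.22 to −0.76). E2F8, without a match, stood at 8.63 at 0 h, at 8.73, 8.39, 7.95, and 7.67 with miR-CTR, and at 8.89, 8.24, 7.91, and 6.49 with miR-16. Until 24 h the logFC of E2F8 stayed between −0.15 and 0.16, each with a counting interval that included 0, and at 48 h it was −1.18 (interval −1.54 to −0.82), or 2.27-fold lower. Its late call thus rests on the 48 h libraries, with 84 reads in the miR-16 library and 238 in the miR-CTR library. E2F8 was also the member that fell most with miR-CTR, by 1.06 on the log2 scale from 6 to 48 h, so it decreased in both series.

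MYB and MYBL1 had the lowest late and the lowest early logFC of all members. MYB stood at 6.12 at 0 h, at 6.36, 6.27, 6.39, and 5.63 with miR-CTR, and at 5.98, 5.83, 5.28, and 3.53 with miR-16. All 4 miR-16 values lay below the 0 h value, and at 48 h only 10 reads were left, against 57 with miR-CTR. Its logFC was −1.11 at 24 h, and −2.10 at 48 h (interval −3.07 to −1.13, 4.29-fold lower), while the counting intervals at 6 and 12 h (logFC −0.38 and −0.44) included 0.

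MYBL1 was measured with more reads, at least 310 per library. It stood at 9.93 at 0 h, the highest of its 9 values, at 9.83, 9.82, 9.61, and 9.45 with miR-CTR, and at 9.49, 9.33, 8.73, and 8.36 with miR-16. The highest miR-16 value, at 6 h, was about as high as the lowest miR-CTR value, at 48 h. The difference was there at 6 h (logFC −0.34, interval −0.49 to −0.19) and went on to −0.49, −0.88, and −1.09. MYBL1 was the only member more than 0.5 below 0 h by 12 h with miR-16, at −0.60, where 3.19% of all genes were.

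MYBL2 decreased from 6 to 48 h with both mimics, and its logFC passed the threshold at 48 h alone. It stood at 12.17 at 0 h, at 12.41, 12.19, 11.98, and 11.66 with miR-CTR, and at 12.47, 12.07, 11.81, and 10.89 with miR-16. Its 4 logFC values were 0.06, −0.12, −0.17, and −0.77 (last interval −0.85 to −0.69), and the late mean of −0.47 was just inside the threshold. At 48 h with miR-16, MYBL2 kept 683 normalized reads per kb, next to 626.9 for E2F5, and this order turned with the longest transcript as the length (701.4 and 737).

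**Figure D3:**
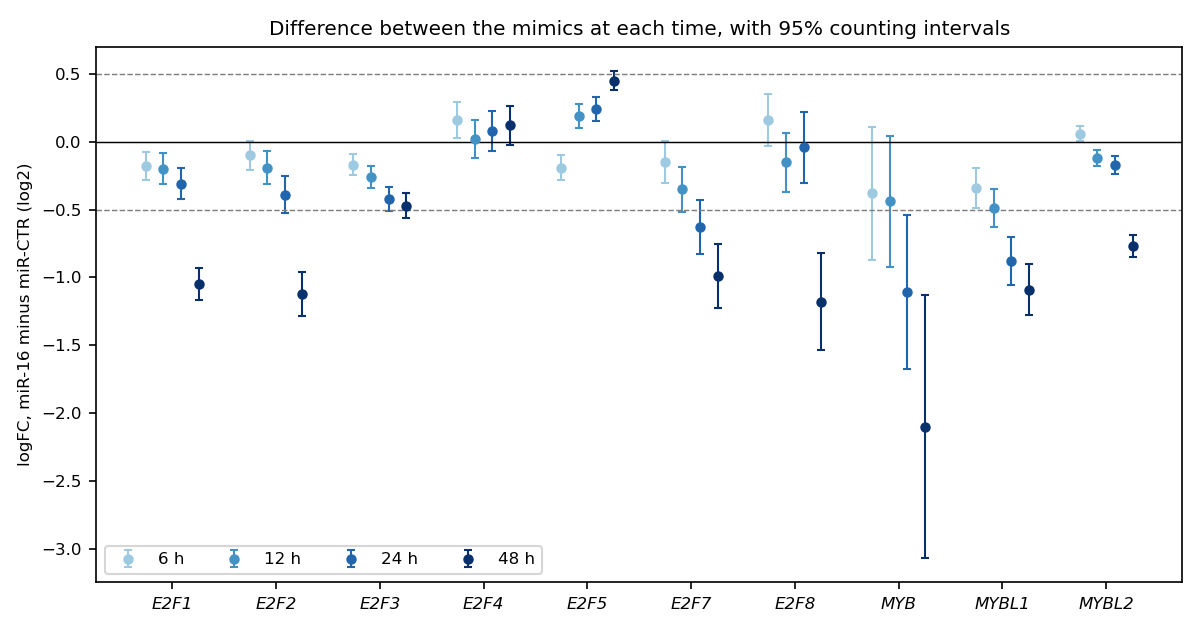
logFC (miR-16 minus miR-CTR, log2) of each member at 6, 12, 24, and 48 h, from light to dark blue, with 95% counting intervals; dashed lines mark 0.5 in either direction. At 48 h 7 members lie below −0.5, from −0.77 for MYBL2 to −2.10 for MYB, while E2F4 and E2F5 lie above 0.

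Set side by side with the sites, the members with a seed match of 7 or more bases (E2F3, E2F7, MYB, and MYBL1) had a logFC between −0.26 and −0.49 at 12 h and between −0.42 and −1.11 at 24 h. The 6 members without one lay between −0.20 and 0.19 at 12 h and between −0.39 and 0.24 at 24 h, so the ranges did not overlap at these times, by gaps no larger than about 1 counting SE of a member. At 6 h they overlapped, since E2F5 (−0.19) and E2F1 (−0.18) were below E2F3 (−0.17) and E2F7 (−0.15). At 48 h they overlapped too: E2F8, E2F2, and E2F1, without such a match, stood at −1.18, −1.12, and −1.05, below E2F3 at −0.47. Over all measured genes with an annotated 3′UTR, the median logFC at 12 h was −0.05 with a match and 0.01 without, and at 24 h −0.09 and 0.02. The members are few and related, and no test was made of this difference.

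Over the 4 time pairs together, limma called 4 members lower with miR-16 at an adjusted p under 0.05, as it did 5.73% of all 14839 genes. They were MYBL1 (mean logFC −0.70, adjusted p = 0.00822), E2F3 (−0.33, 0.015), E2F7 (−0.53, 0.0259), and MYB (−1.01, 0.0395). E2F1 (−0.435, limma adjusted p = 0.0545) and E2F2 (−0.45, 0.0672) missed the threshold although they were lower in 4 of 4 pairs. MYBL2 (−0.25, 0.159), E2F8 (−0.30, 0.293), E2F5 (0.17, 0.222), and E2F4 (0.10, 0.329) were not called either. The fit takes the times as repeats of 1 difference, so a difference that grows with time counts as spread. It had 3 residual degrees of freedom, and the calls depended on single pairs: without the 24 h pair no gene at all was called lower, and without the 12 h pair MYBL1 was the only member called (1.25% of all genes). Without the 48 h pair 5 members were called (4.26% of all genes), and without the 6 h pair 6 (8.7%).

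The logFC became lower at each later time for 7 members (E2F1, E2F2, E2F3, E2F7, MYB, MYBL1, and MYBL2), as it did for 8.87% of all genes. It was negative at all 4 times for 6 of these, all but MYBL2, and for 16.7% of all genes. Ranked from the lowest logFC at 48 h among the 11130 genes above the 25th percentile of mean expression, E2F8 was 26th, E2F2 38th, MYBL1 49th, E2F1 57th, and E2F7 76th. MYBL2 was 279th and E2F3 961st, while E2F4 and E2F5 were 7571st and 10269th.

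Each series was also set against 0 h, and all these differences share the 0 h library. In the late window 8 members were more than 0.5 below 0 h with miR-16 (all but E2F4 and E2F5), against 11.7% of all genes, with a median over the 10 of −0.96. With miR-CTR only E2F8 was, at −0.82, against 9.79% of all genes, and the median was −0.235. The comparison of 48 with 6 h does not use the 0 h library. In it 8 members changed by more than 0.5 downward with miR-16 (16.8% of all genes) and 5 with miR-CTR (E2F2, E2F7, E2F8, MYB, and MYBL2; 13.3% of all genes), with medians of −1.355 and −0.54. E2F1 was the only member whose change from 6 to 48 h had opposite signs in the 2 series, at −0.78 with miR-16 and 0.09 with miR-CTR. The miR-CTR change was small, and no counting error was computed for it.

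The make-up of the E2F members differed between the mimics. E2F6, measured at 10.44 at 0 h but not a member, was left out of these shares. Summed per kb, E2F1 to E2F3 made up 61.8% of the E2F mRNA counted here (E2F1 to E2F5, E2F7, and E2F8) at 0 h and between 62.4% and 65.5% in the 4 transfected miR-CTR libraries. In the miR-16 libraries, in order of time, their share was 63.4%, 58%, 57.2%, and 45.4%, so that only the 6 h library lay within the range of the control. The share of E2F4 and E2F5 went from 26.3% at 6 h to 51.2% at 48 h, against 31.1% with miR-CTR at 48 h. E2F7 and E2F8 went from 10.4% to 3.4% with miR-16 and from 9.6% to 5.6% with miR-CTR. Without E2F5, whose exons overlap other genes, E2F1 to E2F3 had 73.8% with miR-16 and 81.1% with miR-CTR at 48 h.

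**Figure D4:**
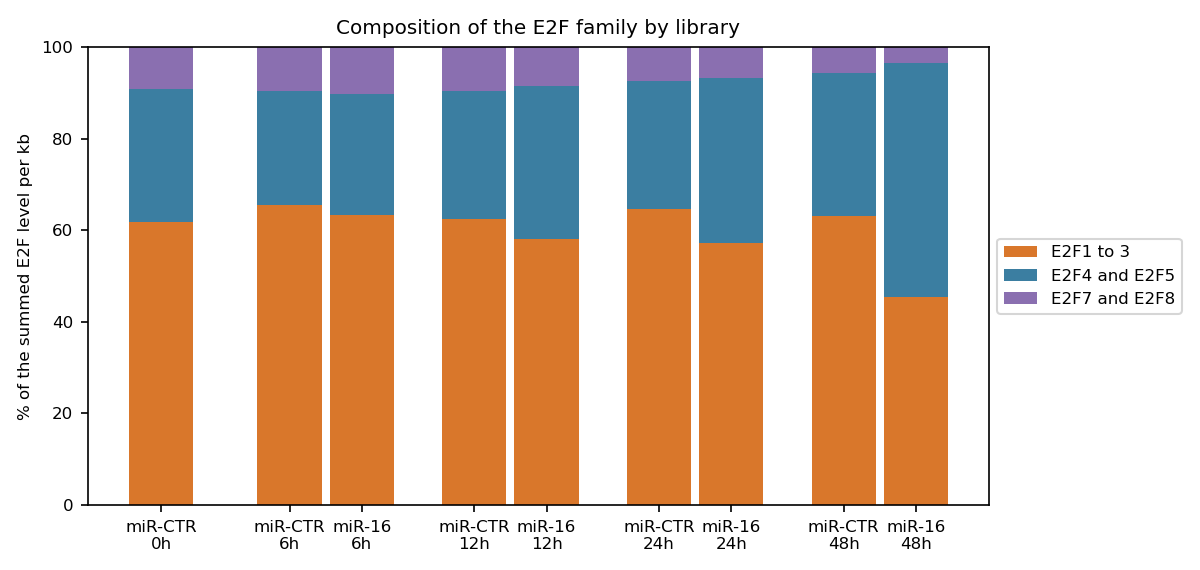
Share of the summed E2F level (normalized reads per kb of exon, in percent) held by E2F1 to E2F3, E2F4 and E2F5, and E2F7 and E2F8 in each of the 9 libraries. In the miR-16 library at 48 h E2F1 to E2F3 hold 45.4% and E2F4 and E2F5 hold 51.2%, against 63.2% and 31.1% with miR-CTR.

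Promoter sequence (250 bases before to 50 after the start, RefSeq on GRCh38.p14) was at hand for 7 members: E2F1, E2F2, E2F3, E2F4, E2F7, MYB, and MYBL2. An E2F motif (TTTCCCGC, TTTCGCGC, TTTGCCGC, or TTTGGCGC on either strand) was present in those of E2F1, E2F2, and E2F3, and in 3.3% of all 35116 promoters. With the first T left out of the motif E2F7 was added, and 13% of all promoters had a match. E2F1 had the full motif once on each strand, close together. The sites are shown 5′ to 3′ in the direction of the gene, with the motif in capitals.
E2F1 (chr20:33686400-33686429, reverse strand): gtggctctttcGCGGCAAAaaggatttggc
E2F1 (chr20:33686387-33686416, reverse strand): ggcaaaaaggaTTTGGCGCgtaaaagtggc
E2F2 (chr1:23531257-23531286, reverse strand): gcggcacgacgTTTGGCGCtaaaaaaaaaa
E2F3 (chr6:20401815-20401844, forward strand): ttgaaaagccgGCGGGAAAtccgagtttcg

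Motifs for the other factors were searched on both strands too. A MYB motif (AACGG or AACTG) was in 4 of the 7 promoters (E2F1, E2F3, E2F4, and MYBL2) and in 52.4% of all promoters. The CHR motif of mitotic genes (TTTGAA or TTCGAA) was in that of E2F3 alone and in 16.4% of all promoters. A match describes the letters in this window and is not evidence of binding.

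Of the partners of these factors, 1 was called. The list held the pocket proteins, the DP proteins that pair with E2F1 to E2F6, E2F6 itself, and the MuvB subunits. Of its 11 genes, RBL1 (p107, itself an E2F target) was called lower in the late window, at −0.58 (counting SE 0.07), and none higher, with a list median of −0.12. Over all genes 5.73% were lower and 7.76% higher, so 1 of 11 is near the background. RB1, the retinoblastoma gene, was at −0.175, and TFDP1, the main DP partner, at 0.01. RBL2 (p130, the pocket protein of resting cells) had a late logFC of 0 (counting SE 0.054) and stood 0.76 above 0 h with both. The MuvB subunits LIN54 and LIN52 were at −0.345 and −0.32, LIN37 at −0.36 (counting SE 0.28), LIN9 at −0.06, and RBBP4 at 0.085.

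Upstream of the E2F proteins act the cyclins and kinases that phosphorylate the pocket proteins, and the inhibitors of these kinases. The list also held SKP2 and CCNF (cyclin F), which are neither kinases or cyclins of this step nor inhibitors of these kinases. Of 12 measured genes 6 were called lower in the late window (5.73% of all genes) and none higher, with a median of −0.44. CCNF was among the 6, at −0.78. CCNE1, a cyclin E, was already at −0.56 at 6 h and −0.53 at 12 h, and CCND3, a cyclin D, at −0.61 at 12 h and −1.19 at 48 h. CCND1, another cyclin D, was at −0.41, −0.43, −0.6, and −0.66 at 6, 12, 24, and 48 h. The other cyclin E, CCNE2, was called later, with −0.21 at 12 h, −0.75 at 24 h, and −1.11 at 48 h. CDKN2C, an inhibitor of CDK4 and CDK6 and a known E2F target, had −0.41 at 24 h and −1.28 at 48 h. CDK6, SKP2, and CDKN1A (p21) had late values of −0.10, 0.05, and −0.125. CDKN1A was at −0.53 at 12 h, −0.28 at 24 h, and 0.03 at 48 h.

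Downstream, most of the listed target genes passed the threshold at 48 h and few at 24 h. Of 43 genes of the G1/S transition that E2F drives, 22 were called lower and 1 higher in the late window. In that window 5.73% of all genes were called lower and 7.76% higher. Of these 43, 4 were below −0.5 at 24 h (5.26% of all genes) and 35 at 48 h (8.96% of all genes), with medians of −0.21 and −0.76. CDC25A, the phosphatase that activates CDK2, was the lowest of them in the late window at −1.21, and MCM10 (replication start) was at −0.82. Of 38 genes of mitosis that MYBL2 and FOXM1 drive, 18 were called lower and 0 higher in the late window, 2 were below −0.5 at 24 h and 31 at 48 h, with medians of −0.24 and −0.78. ANLN (anillin, a scaffold of the contractile ring) was the lowest in the late window at −1.205, ahead of ASPM at −0.775 and CDK1 at −0.73. FOXM1 itself, the forkhead factor that follows MYBL2 on these promoters, was at 0.04 at 24 h and −0.56 at 48 h, PLK1 at −0.24 and −0.79, and CCNB1 at 0.02 and −0.43. From 6 to 48 h the median change with miR-CTR was −0.49 for the G1/S and −0.50 for the G2/M genes, beside −1.22 and −1.19 with miR-16.

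Of 7 measured coactivators and targets described in blood cells none was called lower in the late window, where 5.73% of all genes were. The coactivators CREBBP and EP300 were at −0.14 and −0.10, the targets KIT and ADA at −0.125 and 0.42, and MYC was called higher at 0.585, as 7.76% of all genes were.

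**Figure D5:**
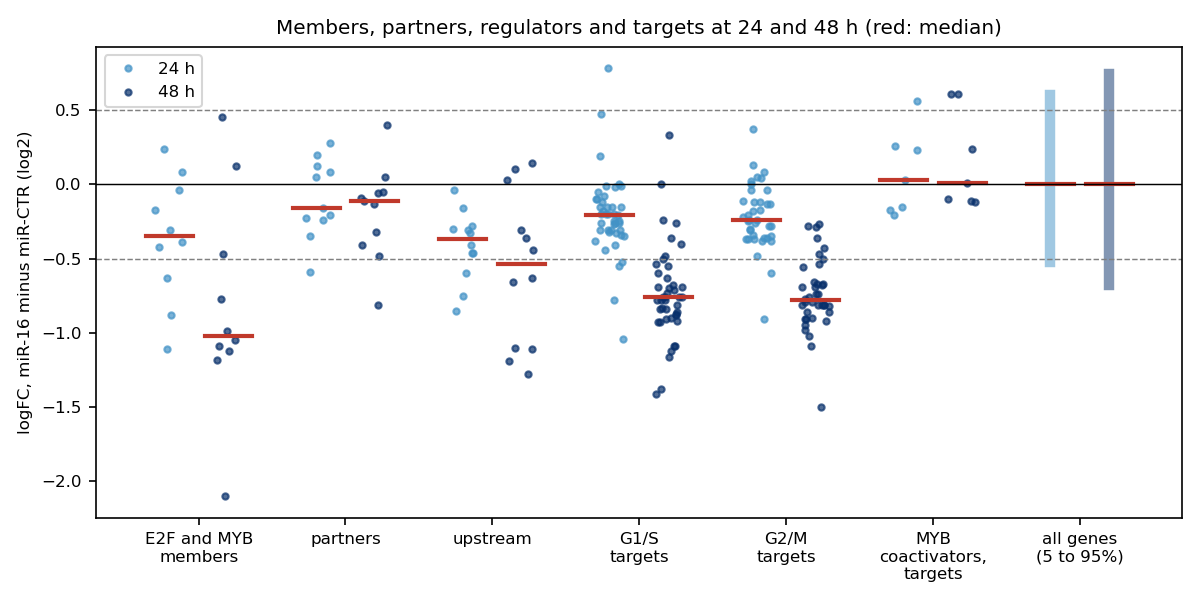
logFC at 24 h (light) and 48 h (dark) of the 10 members, their partners, upstream regulators, G1/S and G2/M targets, and MYB coactivators and targets; each point is a gene, red bars are medians, and the bars at the right span the 5th to 95th percentile of all genes. The G1/S and G2/M targets go from medians of −0.21 and −0.24 at 24 h to −0.76 and −0.78 at 48 h.

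The genes with the 4 logFC values closest to those of a member, by root mean square difference among the 11130 genes above the 25th percentile of expression, were searched for E2F1 and MYB. For E2F1 they were FANCA (0.049), CHAF1A (0.063), and E2F2 (0.067). FANCA, of the Fanconi anaemia repair pathway, had −0.40 at 24 h and −1.03 at 48 h, and CHAF1A, a histone chaperone of replication, −0.31 and −1.09. For MYB the nearest were SMPD1 (0.309), ARL2 (0.316), and DYNC1I1 (0.322), so no gene lay as close to MYB, which had few reads.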

How the data were processed

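MP41 RNA was sequenced as polyA RNA, in 1 library per condition. The authors deposited log2 normalized values for 14839 genes, with 2 decimals. Per the labels, FastQC, STAR 2.4.0a and featureCounts of Subread 1.5.0-p3 were used with hg38/GRCh38; strand setting, size factors, and gene filter are not given in the sources used here. The deposited values were used unchanged. On the linear scale less 1, low values (at most 5) fell on whole multiples of a step set per library in 100% of cases (tolerance 0.0051 on the log2 scale), which gave reads per gene. The counting SE of a logFC came from these reads. Recovery and calling were tested on simulated data. 3′UTRs and exon lengths came from GENCODE release 29, sequences of miR-16 and promoters from RefSeq. Python 3.11.15, pandas 2.3.3, numpy 2.4.6, and matplotlib 3.10.9 were used. The deposited log2 values of the 8 transfected libraries were also fitted over all genes with limma 3.58.1 (terms for time and mimic, trend, Benjamini-Hochberg adjustment), a test added after seeing the data and tested on simulated data. The simulated differences were the same at every time, so that simulation did not cover differences that grow with time.

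The members, lists, and rules were chosen with earlier results of these data known. Named were all members, from each list the 3 lowest and 3 highest late logFC above the 25th percentile of mean expression or preset genes (not all are printed), and the 3 genes nearest to E2F1 and to MYB. C8orf59 was added after its overlap with E2F5 was seen, CCNF to describe its list, and LIN9 and LIN37 to give all the listed MuvB subunits. Alternatives tried were a threshold of 1.5-fold, quantile normalization, centring, scaling by total reads, a pseudocount of 10, a filter at the 25th percentile, the 0 h reference, both times past the threshold, single times, other site and motif definitions, and other lengths. Protein sequences were planned and not used here.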

Additional observations from a re-analysis of the deposited data

How the results depend on the processing

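With time as a replicate block (limma over 4 pairs, added after seeing the data) 4 members were called lower, and leaving out 1 pair in turn gave between 0 and 6. The 0 came without the 24 h pair, when no gene at all was called lower. Of 138 alternative values for the early and late logFC of single members 113 stayed within the counting interval, 25 moved outside it, and none of the called values reversed. All 98 from another scaling, pseudocount, centring, or filter stayed within it. For the filter and centring this was fixed in advance. A filter leaves the logFC of a kept member unchanged, and centring subtracts only the all-gene median, 0 early and 0.005 late. With both late times past the threshold, 3 members were called lower, and the other late counts were 0 partners, 3 upstream genes, 4 G1/S targets (0 higher, and 0 lower early), and 2 G2/M targets. With 24 h alone they were 3 members, 3 upstream genes, 4 G1/S targets, and 2 G2/M targets. With 48 h alone 35 G1/S (0 higher) and 31 G2/M targets were lower and 2 genes of the MYB list higher. At 48 h 8.96% of all genes were lower, and 1541 of the 14839 genes were higher. At 1.5-fold the late counts were 0 partners and 13 G1/S targets lower (22 as reported, 16 with quantile normalization) and 0 higher, and 0 upstream genes early. Against 0 h, 1 member was called lower early. The late counts against 0 h were 3 partners lower and 2 higher, 40 G1/S targets lower and 0 higher (0 higher early as well), and 1 gene of the MYB list lower. Late against 0 h, 11.7% of all genes were lower. For the early and the higher calls against 0 h, 1.5-fold, quantile normalization, and both times, the share of all genes is not given here. Those counts thus have no background beside them. With the longest transcript as length, E2F1 to E2F3 held 59.4% of the E2F sum with miR-CTR and 41.6% with miR-16 at 48 h; without E2F5, a choice made after seeing the data, 81.1% and 73.8%. Requiring more can only lower a count. With 1 time alone the change depended on the time and the list: the G1/S count was 4 at 24 h and 35 at 48 h, while the upstream count was 3 and 6. For these and the other settings the cause was not tested. Depth limits MYB most, with 10 reads in the miR-16 library at 48 h.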

Other observations

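A few S phase and mitotic genes ran against the rest. GMNN (geminin, the inhibitor of replication licensing) was the only G1/S target called higher in the late window, at 0.555, with logFC values of 0.57, 0.76, 0.78, and 0.33 in order of time. CCNA2 (cyclin A) was at 0.55, 0.80, and 0.47 at 6, 12, and 24 h and at 0 at 48 h. Both were below 0 h in the late window with either mimic, GMNN at −0.645 with miR-16 and −1.20 with miR-CTR and CCNA2 at −0.80 and −1.035. In the G2/M list NEK2, a centrosomal kinase, was at 0.46 at 12 h and 0.37 at 24 h before −0.36 at 48 h, and TOP2A at 0.30 and 0.13 before −0.28.

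TFDP2, the second DP partner, was the highest of the partner list in the late window, at 0.34, and RBBP4, the histone-binding MuvB subunit, stood at 0.085.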
